A study of Mus musculus with 24 samples.

Results

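Splicing factors are the RNA-binding proteins that decide which exons of a pre-mRNA are joined, and their kinases set how active many of them are. The 45 genes described here are 12 genes of the serine- and arginine-rich (SR) protein family, 16 heterogeneous nuclear ribonucleoprotein (hnRNP) genes, 11 regulators with tissue-restricted splicing programmes and 6 kinases of SR proteins. They were taken by symbol from a fixed list that leaves out the Khdrbs genes, and each had to reach a normalized value of 1 or more in 6 or more of 24 libraries; all 45 of the 45 listed genes did, among 14544 genes that passed the same filter of 29020 in the table. Each library is the mesenteric artery of 1 male mouse, resistance vessels that supply the gut, cleaned of perivascular fat and veins, and read by stranded, ribosomal RNA-depleted total RNA sequencing. The 4 groups of 6 were ieET-1 long term, ieCre long term, ieET-1 short term and ieCre short term.

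All of the mice, controls included, carry a Cre recombinase that tamoxifen switches on and that the Tie2 promoter directs to endothelium, and all received tamoxifen under the skin at 1 mg/kg per day over 5 days from an age of 10 to 12 weeks. The ieET-1 mice in addition overexpress human endothelin-1, a vasoconstrictor peptide, from the endothelium, whereas the ieCre mice do not. Long term means 3 months and short term 16 days between tamoxifen and tissue collection, so the long-term mice were also older. Endothelium is a minor part of the artery wall, and a bulk library cannot tell fewer cells of a type from less RNA per cell. The title of the study names alternative splice isoforms of Vegfa, and the question put to these genes is whether the general splicing machinery moved with endothelin-1 or with time. The values are per gene, so exon inclusion and isoforms were not analysed.

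SR proteins bind exonic enhancer sequences through an RNA recognition motif and draw the spliceosome to weak splice sites with their arginine- and serine-rich tail. hnRNPs coat nascent RNA and often act the other way, keeping exons out. Clk kinases in the nucleus and Srpk kinases in the cytoplasm phosphorylate the tails of SR proteins and so control where they sit and what they bind. Many of these genes limit their own protein by splicing in an exon with a premature stop, which sends the transcript to nonsense-mediated decay. In arteries, Mbnl, Celf, Rbfox2, Qki, Rbpms and Ptbp1 are known for setting the exons of contractile and cytoskeletal genes in smooth muscle.

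Recovered totals per library ran between 9635250 and 16181605 reads. In 4 libraries Gm42418, whose locus includes ribosomal RNA sequence, took over 10% of reads: mice 8135 and 8136 (ieET-1 long term), 9491 (ieCre long term) and 9955 (ieCre short term). Mouse 9489 (ieET-1 long term) had reads on 24399 genes, against a median of 19992.5. The least-covered value of any of the 45 genes, for Hnrnph3, rested on 66 reads. Markers of smooth muscle (8 of 8) and endothelium (8 of 8) passed the filter. Those of fibroblasts, adipocytes, nerve and adrenal cortex passed too, as did 7 pancreas acinar markers, so passing does not identify the tissue.

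At the level of the transcript, the 45 genes as a set differed from protein-coding genes tested in features that the rule for choosing them did not use. In the GENCODE mouse annotation, release 21, 31 of the 45 (68.9%) have at least 1 transcript marked for nonsense-mediated decay, against 27.8% of the 13435 protein-coding genes tested. SR protein genes had one in 11 of 12 cases, Srsf10 being the exception, and the kinases in 6 of 6. It was fewer among hnRNPs (8 of 16) and tissue regulators (6 of 11). Retained-intron transcripts are annotated for 36 of the 45 (80.0%), against 57.8% of protein-coding genes tested. By class the share was 62.5% for hnRNPs, 83.3% for SR proteins, 90.9% for tissue regulators and 100% for kinases. The median number of annotated transcripts was 10, against 5, and the median GC content of the transcripts was 43.9%, against 50.1%. The median coefficient of variation between mice of a group was 13.7%, against 17.1% over protein-coding genes tested, and it differed between the classes. The 45 genes and this background were not matched for expression level.

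Promoter sequence is printed for 5 of the 6 genes that passed the test between the times (below), so that the start regions of genes that passed together can be compared. RefSeq windows of 250 bases before to 50 bases after a gene start were matched for 41 of the 45 genes (60 windows, build GRCm38.p6); Clk1, Ptbp3, Rbfox2 and Rbpms were not matched. The sequences are the first window listed for each gene, on the coding strand, 5′ to 3′. Capitals mark matches, on both strands, to a cAMP response element (TGACGTCA), an E-box (CACGTG), an ETS site (CCGGAAG) or a heat shock element (GAA, any 2 bases, TTC, any 2 bases, GAA), and the marked letters overlap no other motif searched.
Srsf11, chr3:158036557-158036856, minus strand: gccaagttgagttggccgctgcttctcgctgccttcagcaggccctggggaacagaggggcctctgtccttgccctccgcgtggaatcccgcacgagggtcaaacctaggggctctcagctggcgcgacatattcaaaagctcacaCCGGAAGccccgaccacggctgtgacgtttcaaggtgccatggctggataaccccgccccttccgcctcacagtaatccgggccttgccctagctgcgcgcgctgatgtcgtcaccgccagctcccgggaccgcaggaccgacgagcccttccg
Srsf6, chr2:162931258-162931557, plus strand: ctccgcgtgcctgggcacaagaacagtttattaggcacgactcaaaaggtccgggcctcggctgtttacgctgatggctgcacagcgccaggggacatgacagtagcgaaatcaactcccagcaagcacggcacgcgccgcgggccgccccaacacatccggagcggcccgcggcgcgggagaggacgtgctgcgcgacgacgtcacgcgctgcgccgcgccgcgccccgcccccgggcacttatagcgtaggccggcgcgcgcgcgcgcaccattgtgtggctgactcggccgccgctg
Hnrnpa2b1, chr6:51469845-51470144, minus strand: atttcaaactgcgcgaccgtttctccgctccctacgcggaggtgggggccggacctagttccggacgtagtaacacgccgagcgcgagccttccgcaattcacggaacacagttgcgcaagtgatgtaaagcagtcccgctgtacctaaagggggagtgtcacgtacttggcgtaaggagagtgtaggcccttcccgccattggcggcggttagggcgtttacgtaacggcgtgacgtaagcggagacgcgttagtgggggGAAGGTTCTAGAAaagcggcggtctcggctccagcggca
Clk4, chr11:51262864-51263163, plus strand: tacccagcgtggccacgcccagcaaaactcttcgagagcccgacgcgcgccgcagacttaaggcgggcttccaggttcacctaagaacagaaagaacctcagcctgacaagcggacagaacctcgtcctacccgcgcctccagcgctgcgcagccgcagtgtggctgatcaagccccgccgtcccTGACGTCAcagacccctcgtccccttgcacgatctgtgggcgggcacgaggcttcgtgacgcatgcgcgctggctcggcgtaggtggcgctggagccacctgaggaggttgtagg
Hnrnpf, chr6:117900090-117900389, plus strand: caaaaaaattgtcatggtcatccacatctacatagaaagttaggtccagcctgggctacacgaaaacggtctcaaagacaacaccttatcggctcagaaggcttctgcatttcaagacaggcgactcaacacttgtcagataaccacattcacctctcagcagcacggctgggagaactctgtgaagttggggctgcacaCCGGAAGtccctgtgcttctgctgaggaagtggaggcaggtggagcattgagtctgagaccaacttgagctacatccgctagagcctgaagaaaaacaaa
The window of Clk4 holds the response element, that of Hnrnpa2b1 the heat shock element, and those of Srsf11 and Hnrnpf an ETS match. The cAMP response element occurs in 1.79% of 32851 windows of the genome table, the heat shock element in 0.603% and the ETS match in 8.86%. Among the 60 windows of the splicing genes the shares were 3.33%, 5.0% and 18.3% in the same order. These shares rest on few windows, namely 2, 3 and 11, which come from 2, 2 and 7 genes. The 2 windows of Hnrnpa2b1 overlap and hold the same heat shock element, which is therefore counted in both. None of the motifs marked by capitals lies in the Srsf6 window. What most of the 60 windows share is the GC box (GGGCGG, either strand), found in 76.7% of them against 35.7% of all windows, while the TATA box (TATAAA) was in 11.7% against 13.6%, the E-box in 13.3% against 7.15% and the CCAAT box (CCAAT) in 43.3% against 37.4%. The background windows were not limited to genes expressed in these arteries, and some genes have more than 1 window. A match is a description of letters and not of a bound factor.

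Levels were compared between genes on the scale of value per kilobase of exon, averaged over the 24 libraries. The length counts the merged exons of all annotated transcripts, from 1653 bases for Srsf9 to 25884 for Celf2. The order of genes therefore depends on the annotation as well as on the RNA. SR protein genes covered the whole range, with Srsf5 highest at 51.5, followed by Srsf2 at 41.3, Srsf1, the founding member of the family, at 34.05 and Srsf6 at 30.2, and with the Transformer-2 homologue Tra2a lowest at 2.54. The hnRNP genes ran between 2.76 for Hnrnpd and 38.3 for Hnrnpk. Values for Hnrnpa1 and other hnRNP genes with many processed pseudogenes may share reads with those copies and are uncertain to that extent. Among the tissue regulators, Mbnl1, the muscleblind protein whose loss of function causes the splicing defects of myotonic dystrophy, was highest at 46.5, ahead of its paralogue Mbnl2 at 26.4. The 3 polypyrimidine tract-binding genes, which repress exons, were all present: Ptbp3 had 25.2, Ptbp1 14.3 and Ptbp2, the neuronal paralogue, 5.15 per kilobase. Qki had 19.3, Rbpms 12.8 and Rbfox2 15.1, all of them named above for smooth muscle exons. Of the kinases, Clk1 stood at 26.3 and Clk4 at 14.002, while Clk2, Clk3, Srpk1 and Srpk2 lay between 3.89 and 5.32. The 4 group means of a gene lay close together beside these differences between genes.

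**Figure D1:**
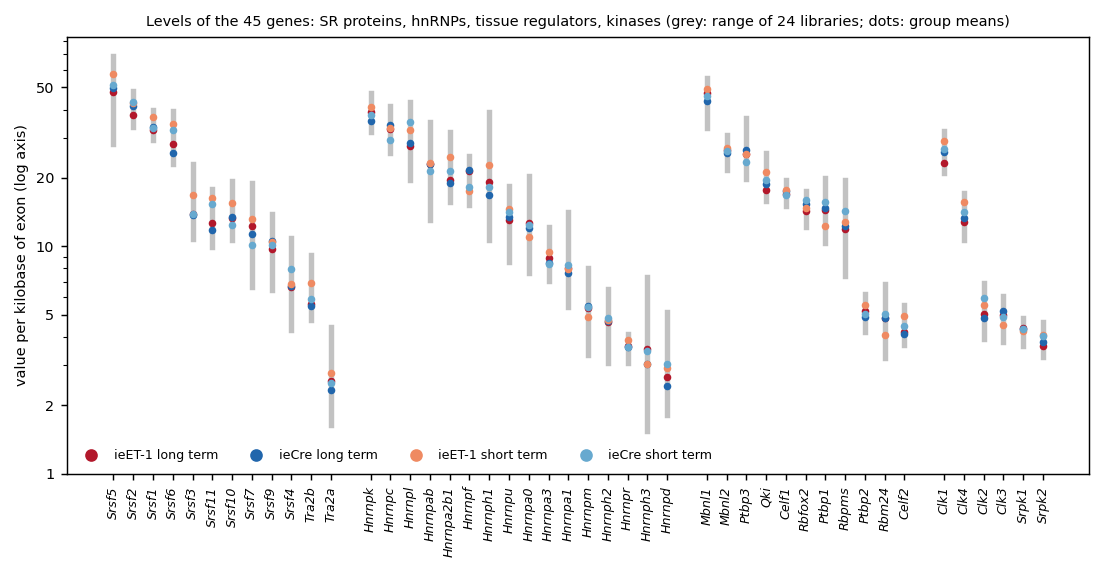
Value per kilobase of exon (log axis) for each of the 45 genes, in 4 blocks from left to right for SR proteins, hnRNPs, tissue regulators and kinases, with grey bars for the range of 24 libraries and dots for the 4 group means. Levels span from 2.54 (Tra2a) to 51.5 (Srsf5), and the coloured dots of most genes nearly coincide.

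The comparison of times asks which splicing genes differed between long-term and short-term arteries. With the difference averaged over both genotypes, 6 of the 45 genes passed limma at an adjusted p under 0.05, 5 lower and 1 higher in long-term arteries; 16.7% of all genes tested passed in that comparison (9.81% higher and 6.91% lower), so the share among splicing genes was near the background. The genes that fell were the SR protein genes Srsf11 and Srsf6, the hnRNP gene Hnrnpa2b1 and the kinase genes Clk1 and Clk4, and the gene that rose was Hnrnpf. No tissue regulator passed, and Hnrnpl, with a larger averaged difference than Hnrnpa2b1 but more spread, missed the threshold (-0.28, SE 0.12, adjusted p = 0.112). The sizes were modest, with log2 differences between -0.37 and 0.26, and for all 45 genes the 95% interval of the difference lay within 1.5-fold in either direction.

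Srsf11 encodes an SR-related protein that associates with the 3′ splice site machinery. In long-term arteries its normalized value was 98.3, 109 and 114 in ieET-1 mice (lowest, median, highest of 6) and 84.1, 97.7 and 119 in ieCre mice, against 132, 136 and 144 in short-term ieET-1 mice and 100.3, 133 and 150.3 in short-term ieCre mice. Every long-term ieET-1 library lay below every short-term ieET-1 library, whereas in ieCre the groups overlapped. The log2 difference, long minus short term, was -0.36 (SE 0.09, adjusted p = 0.019) in ieET-1, -0.38 (SE 0.09, adjusted p = 0.0266) in ieCre and -0.37 (SE 0.07, adjusted p = 0.000504) averaged over both, all by limma. Srsf11 (ENSMUSG00000055436) lies on chromosome 3 from 158010473 to 158036639 in GRCm38, minus strand, and its promoter window is printed above.

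Srsf6 is a classical SR protein that controls, among other targets, exon choice in cytoskeletal and tau transcripts. Its value was 113, 132 and 160.4 in long-term ieET-1 arteries and 111, 123 and 141 in long-term ieCre arteries, against 152, 161 and 189 in short-term ieET-1 and 142, 157 and 179 in short-term ieCre arteries. Here the ieCre groups did not overlap, and the ieET-1 groups did. The log2 difference was -0.30 (SE 0.09, adjusted p = 0.0284) in ieET-1, -0.34 (SE 0.09, adjusted p = 0.0283) in ieCre and -0.32 (SE 0.06, adjusted p = 0.000762) averaged over both by limma. The gene (ENSMUSG00000016921) is on chromosome 2 from 162931528 to 162937121.

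Hnrnpf binds runs of G near splice sites and, unlike the others named here, rose. Long-term values were 54.7, 63.7 and 75.99 in ieET-1 and 60.1, 65.96 and 71.9 in ieCre, against short-term values of 49.8, 53.1 and 59.01 in ieET-1 and 46.4, 56.6 and 61.6 in ieCre. Both pairs of groups overlapped. By limma the log2 difference was 0.28 (SE 0.08, adjusted p = 0.0301) in ieET-1, 0.25 (SE 0.08, adjusted p = 0.0873) in ieCre, which missed the threshold, and 0.26 (SE 0.06, adjusted p = 0.0023) averaged over both. Its paralogues did not pass: the averaged differences were -0.15 for Hnrnph1, -0.04 for Hnrnph2 and 0.07 for Hnrnph3. Hnrnpf lies on chromosome 6 from 117900324 to 117925622.

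Hnrnpa2b1 encodes a close relative of hnRNP A1 that acts in exon repression and RNA transport. Its values were 114, 126 and 149.8 in long-term ieET-1, 104, 127 and 139 in long-term ieCre, 121, 167 and 210.3 in short-term ieET-1 and 125, 134 and 175 in short-term ieCre arteries. It passed limma when the genotypes were averaged, with a log2 difference of -0.25 (SE 0.08, adjusted p = 0.038), and in neither genotype alone (-0.32, SE 0.11, adjusted p = 0.0816 in ieET-1 and -0.18, SE 0.11, adjusted p = 0.436 in ieCre). The groups overlapped in both genotypes. The gene (ENSMUSG00000004980) is on chromosome 6 from 51460932 to 51469894.

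The paralogous kinases Clk1 and Clk4, whose own transcripts are kept in the nucleus with retained introns until splicing is needed, fell in ieET-1 arteries. Clk1 was 171, 188 and 216 in long-term ieET-1, 180.4, 214 and 228 in long-term ieCre, 206, 233 and 262 in short-term ieET-1 and 185, 213 and 258 in short-term ieCre arteries. Clk4 was 61.5, 72.8 and 84.9 in long-term ieET-1, 70.3, 75.8 and 93.8 in long-term ieCre, 80.5, 91.6 and 99.8 in short-term ieET-1 and 70.4, 81.8 and 99.4 in short-term ieCre arteries. For both kinases the long-term and short-term libraries overlapped in each genotype. The limma log2 differences within ieET-1 were -0.32 (SE 0.09, adjusted p = 0.0291) for Clk1 and -0.30 (SE 0.09, adjusted p = 0.0408) for Clk4, and those within ieCre were -0.05 (SE 0.09, adjusted p = 0.807) for Clk1 and -0.09 (SE 0.09, adjusted p = 0.647) for Clk4. That the fall was confined to ieET-1 is not shown, because the genotype by time interaction did not pass for either gene (-0.26, SE 0.13, adjusted p = 0.752 for Clk1 and -0.22, SE 0.13, adjusted p = 0.752 for Clk4 by limma). The averaged differences were -0.18 (SE 0.06, adjusted p = 0.0475) for Clk1 and -0.20 (SE 0.07, adjusted p = 0.0404) for Clk4 by limma. Clk1 (ENSMUSG00000026034) lies on chromosome 1 from 58410189 to 58424066 and Clk4 (ENSMUSG00000020385) on chromosome 11 from 51261730 to 51281766. Clk2, Clk3, Srpk1 and Srpk2 did not pass, with averaged log2 differences between -0.21 (Clk2) and 0.11 (Clk3).

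**Figure D2:**
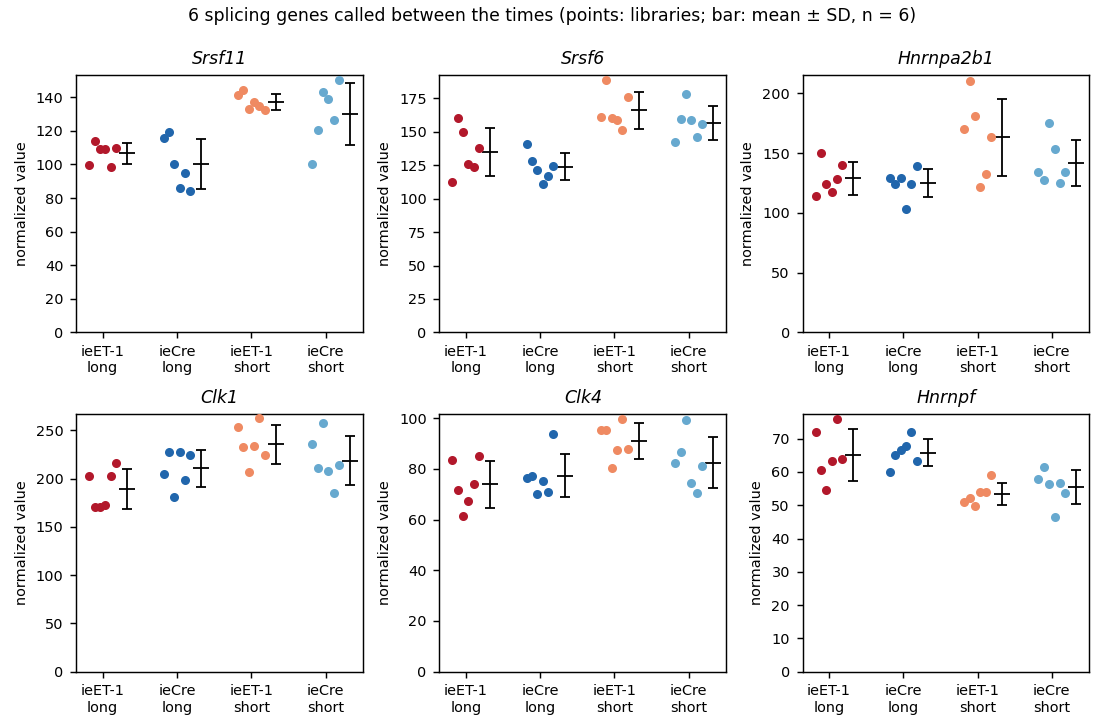
Normalized value of the 6 genes called between the times, 1 panel per gene, with a point per library and the mean ± SD of each group of 6, ordered ieET-1 long term, ieCre long term, ieET-1 short term, ieCre short term. The long-term points of Srsf11 and Srsf6 sit mostly below the short-term points, those of Hnrnpf mostly above, and those of Hnrnpa2b1, Clk1 and Clk4 overlap more.

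The calls differ in how firmly they stand on single libraries. Averaged over genotypes, Srsf11, Srsf6 and Hnrnpf kept their calls in each of 24 fits that left out 1 library (highest adjusted p by limma 0.00123 for Srsf11, 0.00188 for Srsf6 and 0.00518 for Hnrnpf). Hnrnpa2b1 lost its call without any 1 of mice 8134, 8136, 8152, 9486, 256, 257, 258, 8992, 8754 or 9955 (highest adjusted p 0.0704). Clk4 lost it without any 1 of mice 8135, 8136, 8152, 8088, 8089, 9485, 9486, 9487, 256, 257, 8991, 8, 10, 8754 or 9958 (highest 0.0719), and Clk1 without any 1 of mice 8135, 8136, 8152, 8088, 9485, 9487, 256, 257, 8987, 8991, 8992, 8, 10, 8754, 9955 or 9958 (highest 0.0883). Within ieET-1, Srsf11 kept its call in all 24 fits (highest adjusted p 0.0421). There Srsf6 lost it without mouse 8134, 8152, 257 or 8992 (highest 0.0734), Clk1 without 8135, 8136, 8152, 256 or 8991 (0.0693), Hnrnpf without 8134, 9489, 256, 257 or 258 (0.0773) and Clk4 without 8135, 8136, 8152, 256, 257, 8987, 8991 or 8992 (0.105). Within ieCre, both Srsf11 and Srsf6 lost their calls without any 1 of mice 9485, 9486, 9487, 9491, 8754, 9955 or 9958 (highest 0.0788 and 0.0807). Without the 4 libraries high in Gm42418, Clk1 (adjusted p = 0.174) and Clk4 (0.154) lost their limma calls in ieET-1 and Srsf11 (0.145) its call in ieCre, and in the average over genotypes Hnrnpa2b1 (0.0535) and Clk1 (0.125) lost theirs.

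Within ieET-1 arteries, 5 of the 45 genes passed limma, 4 lower and 1 higher in the long term, where 8.66% of all genes tested passed (3.39% lower and 5.27% higher). Within ieCre 2 of 45 passed, both lower, where 3.30% of all genes passed (1.93% higher and 1.37% lower). The 12 SR protein genes had lower means in the long term in all 12 cases in ieET-1 (in 8 with the nuclear RNA score as a term, 10 with the GC contrast and 11 without the libraries high in Gm42418). Their median log2 difference was -0.19 against 0.01 over all genes tested, and among them Srsf6 and Srsf11 passed. In ieCre 7 of the 12 were negative, with a median of -0.06 against 0.01. Medians for the other classes in ieET-1 were -0.05 for hnRNPs, -0.06 for tissue regulators and -0.15 for kinases, and in ieCre they were -0.04, -0.05 and -0.07 for the same classes. The 2 genotypes' time differences share no library. Groups did not overlap for 3 of the 45 genes in ieET-1, all lower in the long term (Srsf1, Srsf11 and Qki), beside 3.52% of all genes (1.33% lower). In ieCre they did not overlap for 1 gene, Srsf6, also lower, beside 2.61% (1.05% lower). Srsf1 and Qki had complete separation without passing: Srsf1 was 174, 185 and 194 in long-term against 200.2, 212 and 227 in short-term ieET-1 arteries (limma log2 difference -0.19, SE 0.07, adjusted p = 0.0955), and Qki was 225, 258 and 266 against 271, 292 and 367 (-0.25, SE 0.09, adjusted p = 0.0715).

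Among the tissue regulators, Mbnl1, Mbnl2, Celf1, Rbfox2 and Ptbp1 had small averaged differences between the times. Averaged over genotypes, the log2 difference, long minus short term, was -0.06 (SE 0.08) for Mbnl1, -0.04 (SE 0.06) for Mbnl2, -0.00023 (SE 0.05) for Celf1, -0.06 (SE 0.06) for Rbfox2 and 0.04 (SE 0.11) for Ptbp1. Their 95% intervals were -0.23 to 0.11, -0.16 to 0.09, -0.10 to 0.10, -0.18 to 0.07 and -0.18 to 0.27 in the same order of genes. Mbnl1, for one, averaged 884 ± 145 in long-term ieET-1, 819.7 ± 50.2 in long-term ieCre, 919.5 ± 83.9 in short-term ieET-1 and 855 ± 119.7 in short-term ieCre arteries (SD, n = 6 each). For Celf1 and Ptbp1 the means differed in opposite directions in ieET-1 and ieCre. Ptbp1 averaged 68.4 ± 17.3 in long-term against 58.3 ± 6.44 in short-term ieET-1 arteries. In ieCre it averaged 69.8 ± 16.2 in the long term against 74.5 ± 13.1 in the short term. The largest averaged differences in this class were those of Rbpms (-0.18, SE 0.12, adjusted p = 0.337 by limma), Celf2 (-0.16, SE 0.06, adjusted p = 0.0728) and Qki (-0.15, SE 0.06, adjusted p = 0.0883), none of which passed.

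Among the genes that did not pass between the times, Srsf5, the SR gene with the highest level per kilobase, was 112, 202 and 228 in long-term ieET-1, 156, 197 and 257 in long-term ieCre, 191, 236 and 275 in short-term ieET-1 and 173, 206 and 241 in short-term ieCre arteries (limma averaged log2 difference -0.18, SE 0.11, adjusted p = 0.255). Hnrnpl, which binds CA repeats, was 117, 156 and 232 in long-term ieET-1, 137, 163 and 212 in long-term ieCre, 158, 194 and 249 in short-term ieET-1 and 153, 226 and 257 in short-term ieCre arteries. The groups of both genes overlapped. The hnRNP genes varied most between mice of a group, with a median coefficient of variation of 20.4%, above the 17.1% of protein-coding genes tested, against 14.5% for SR proteins, 9.69% for tissue regulators and 9.57% for kinases. Of the 45 genes the lowly expressed Hnrnph3 varied most, with 35.2%, while Hnrnpk, which binds C-rich RNA, had 11.5% and an averaged log2 difference between the times of -0.08 (SE 0.07). Hnrnpu, a scaffold protein of the nucleus, differed by -0.10 (SE 0.12), Hnrnpc, which keeps exons that arise from Alu elements out of transcripts in human cells, by 0.09 (SE 0.08), and Hnrnpm by 0.08 (SE 0.12). The SR genes not yet described lay between -0.18 (Tra2b) and 0.06 (Srsf7).

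Other genes of the pathway, from lists of related genes, passed in both directions between the times, where 6.91% of all genes tested passed lower and 9.81% higher. Of 28 other splicing regulators tested (of 34 listed), 8 fell and 2 rose in the average over genotypes. By smallest p they were Nova1, best known as a neuronal regulator, at -0.46 (SE 0.06, adjusted p = 2.14e-05), Tial1 at -0.32 (SE 0.05, adjusted p = 0.00017), Rbm5 at -0.38 (SE 0.06, adjusted p = 0.000207) and Rbm10, a paralogue of Rbm5, at 0.20 (SE 0.04, adjusted p = 0.00263), by limma. Of 35 core spliceosome genes, 4 rose and none fell, a share of higher calls near that of all genes: U2af2, the large subunit of the factor that recognises the polypyrimidine tract, at 0.28 (SE 0.07, adjusted p = 0.00494), Snrpb, a component of the Sm ring, at 0.23 (SE 0.05, adjusted p = 0.00547), Prpf19 at 0.24 (SE 0.07, adjusted p = 0.0122) and Snrnp40 at 0.22 (SE 0.06, adjusted p = 0.0166). Of 10 other SR and hnRNP family genes (of 11 listed), 1 fell, Syncrip at -0.21 (SE 0.07, adjusted p = 0.0315), and of 10 other kinases and phosphatases of SR proteins, 1 fell, Cdk12 at -0.28 (SE 0.08, adjusted p = 0.0147). Median log2 differences were -0.11 for the other regulators and 0.06 for the core, against 0.01 for all genes tested, and the summed value of the core genes was 2173 ± 90.3 in long-term ieET-1, 2104 ± 159 in long-term ieCre, 2024 ± 102 in short-term ieET-1 and 2122 ± 122 in short-term ieCre arteries (SD, n = 6 each).

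Several measures moved with time beside these genes. RNAs that stay in the nucleus (Malat1, Neat1, Meg3 and Snhg11) had a median averaged log2 difference of -0.41. Meg3 and Neat1 fell, Malat1 was lower without passing and Snhg11 rose, so the 4 did not move together. Their summed value was 2987 to 6847 in long-term ieET-1 and 3325 to 5734 in long-term ieCre arteries. In the short term it was 4332 to 7939 in ieET-1 and 4541 to 11962 in ieCre arteries. The 11962 was that of mouse 9955, and the next in its group was 6038. Mice 9955 and 8135, both high in Gm42418, had the highest nuclear RNA score of their groups, whereas mice 8136 and 9491 did not. Fibroblast markers were lower in 8 of 8 cases, 5 of them past the test, with a median of -0.57 and summed values of 7284 to 12749.9, 7312 to 14665, 13034 to 17097 and 14405 to 18359.9 in the same groups and order. Adipocyte markers were higher in 7 of 8 cases, 6 of them past the test, and Cfd fell, with a median of 0.42. Pancreas acinar markers were higher in 7 of 7, none past the test, with a median of 1.77. Summed pancreas values were 1162 to 51106 in long-term ieET-1 and 345 to 25192.5 in long-term ieCre arteries. In the short term they were 809 to 15856 in ieET-1 and 82.5 to 23268 in ieCre arteries. Smooth muscle markers had higher means in the long term in 7 of 8 cases in ieET-1 (median 0.35) and in 1 of 8 in ieCre (median -0.07), none past the test, and their summed values were 13229 to 16653 in long-term ieET-1, 9231 to 21142 in long-term ieCre, 9106 to 14997 in short-term ieET-1 and 12576 to 15952 in short-term ieCre arteries. Within ieET-1 alone the medians were -0.69 for fibroblast, 0.35 for adipocyte and -0.41 for nuclear retained RNA, and within ieCre -0.48, 0.61 and -0.41 for the same lists. Adrenal cortex markers differed most among the short-term groups, with summed values of 22.95 to 195 in long-term ieET-1, 38.5 to 164 in long-term ieCre, 2.68 to 72.99 in short-term ieET-1 and 32.7 to 563 in short-term ieCre arteries; with their score as a term, no splicing gene passed limma in either genotype alone, while Srsf11, Srsf6, Hnrnpf, Hnrnpa2b1 and Clk4 passed in the average. The part of the others in the splicing results was not tested beyond 1 further fit. The nuclear retained RNA score, put into the fit as a term after the data had been seen, ended the ieCre calls of Srsf11 (adjusted p = 0.0873) and Srsf6 (0.0872) and the ieET-1 calls of Srsf6 (0.0687) and Hnrnpf (0.0728). It left Srsf11, Srsf6, Hnrnpf, Clk1 and Clk4 called in the limma average over genotypes, where Hnrnpa2b1 was lost (0.321).

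Animal ID ranges are nested in time, and age goes with it as well, so time, age and ID range cannot be told apart. Within ranges, Srsf6 averaged 137 in ieET-1 and 134 in ieCre among long-term mice numbered 80xx to 81xx (4 and 2 mice), and 131 in ieET-1 and 119 in ieCre among those numbered 94xx (2 and 4). Among short-term mice it averaged 170.2 in ieET-1 and 151 in ieCre with IDs of up to 3 digits (3 and 2 mice), and 162 in ieET-1 and 159.8 in ieCre with IDs of 4 digits (3 and 4). Both long-term ranges were below both short-term ranges in each genotype. For Srsf11 the same held in ieET-1 (108 and 104, against 139 and 135) and did not hold in ieCre, where the means were 118 and 91.3 in the long term, against 111 and 139.8 in the short term.

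The comparison of genotypes asks whether endothelin-1 overexpression changed the splicing genes themselves. None of the 45 passed limma in ieET-1 against ieCre arteries at the short term (background 0.0825%), at the long term (0.00688%) or averaged over both times (0.0206%), and none passed in the genotype by time interaction (0%). edgeR and DESeq2 on the recovered reads called none of the 45 either. The groups of the 2 genotypes overlapped for all 45 genes at the short term, where 0.763% of all genes did not overlap, and at the long term (0.103%). At an unadjusted p under 0.05 there were 4 genes at the short term, 0 at the long term, 0 in the average and 2 in the interaction, which among all genes tested make up 9.91%, 2.99%, 6.64% and 5.03% in that order. The intervals bound what the data allow: averaged over times, the 95% interval of all 45 genes lay within 1.5-fold in either direction, as it did for 41 of 45 at the short term, 43 at the long term and 29 for the interaction.

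At the short term, 10 of the 12 SR protein genes were higher on average in ieET-1 arteries. Their median log2 difference was 0.15 against -0.01 over all genes tested. The smallest p belonged to Srsf10, a splicing repressor when dephosphorylated in heat shock. Srsf10 was 86.9, 104 and 136 in ieET-1, against 75.04, 90.1 and 97.96 in ieCre short-term arteries, and the groups overlapped; its log2 difference of 0.30 (SE 0.11, adjusted p = 0.461) did not pass limma. Within ID ranges it averaged 122 in ieET-1 and 91.2 in ieCre (up to 3 digits), and 94.6 in ieET-1 and 85.1 in ieCre (4 digits).

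Srsf1, Srsf3 and Tra2b were also among the 6 smallest p, and their values are given without a call. Srsf1 was 200.2, 212 and 227 in ieET-1, against 167, 179.9 and 223 in ieCre (limma log2 difference 0.17, SE 0.07, adjusted p = 0.487). Srsf3, the smallest SR protein, was 110.3, 125 and 182 in ieET-1, against 91.7, 109 and 128 in ieCre (0.27, SE 0.13, adjusted p = 0.496). Tra2b, which activates exons through GA-rich enhancers, was 48.4, 61.8 and 84.9 in ieET-1, against 45.8, 55.99 and 58.9 in ieCre (0.21, SE 0.11, adjusted p = 0.533). The genotypes overlapped for all of them.

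Lower values at the short term were those of Ptbp1 and of Rbm24, a muscle splicing regulator. Ptbp1 was 48.9, 58.4 and 67.1 in ieET-1, against 58.4, 72.6 and 93.6 in ieCre arteries, with overlap (limma log2 difference -0.34, SE 0.15, adjusted p = 0.49). Rbm24 was 11.5, 13.8 and 17.6 in ieET-1, against 12.1, 17.7 and 21.97 in ieCre (-0.29, SE 0.15, adjusted p = 0.526). Class medians at the short term were 0.02 for hnRNPs, 0.07 for tissue regulators and -0.01 for kinases. Smooth muscle markers were lower in ieET-1 in 8 of 8 cases, none past the test, with a median of -0.45 and summed values of 9106 to 14997 in ieET-1, against 12576 to 15952 in ieCre; their part in the values of the splicing genes was not tested. The 5 adrenal cortex markers all passed limma, each with less signal in short-term ieET-1 than in short-term ieCre arteries. Their median log2 difference was -3.62 (smallest adjusted p = 0.0164 by limma). They were among the 12 of 14544 genes tested that passed in that comparison. None of the 45 splicing genes passed there, either without the adrenal score or with it as a term. Of the related lists, none of 28 other splicing regulators, 35 core genes, 10 other SR and hnRNP genes or 10 other kinases and phosphatases passed in any genotype comparison.

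At the long term no gene passed between the genotypes, and the class medians were -0.01 for SR proteins, 0.03 for hnRNPs, -0.04 for tissue regulators and -0.06 for kinases, against -0.01 over all genes tested. Clk1 had the smallest p and was 171, 188 and 216 in ieET-1, against 180.4, 214 and 228 in ieCre arteries (limma log2 difference -0.15, SE 0.09, adjusted p = 0.999). Srsf2, whose human counterpart is mutated in some blood cancers, was next at -0.13 (SE 0.08, adjusted p = 0.999), followed by Srsf6 at 0.12 (SE 0.09, adjusted p = 0.999), Hnrnpk at 0.12 (SE 0.10, adjusted p = 0.999), Rbfox2 at -0.10 (SE 0.08, adjusted p = 0.999) and Srsf11 at 0.10 (SE 0.09, adjusted p = 0.999). In the interaction, that is, the genotype difference at the long term minus that at the short term, the smallest p belonged to Srsf1 at -0.21 (SE 0.10, adjusted p = 0.752), Clk1 at the value given above and Srsf10 at -0.31 (SE 0.16, adjusted p = 0.752). None of these passed limma.

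**Figure D3:**
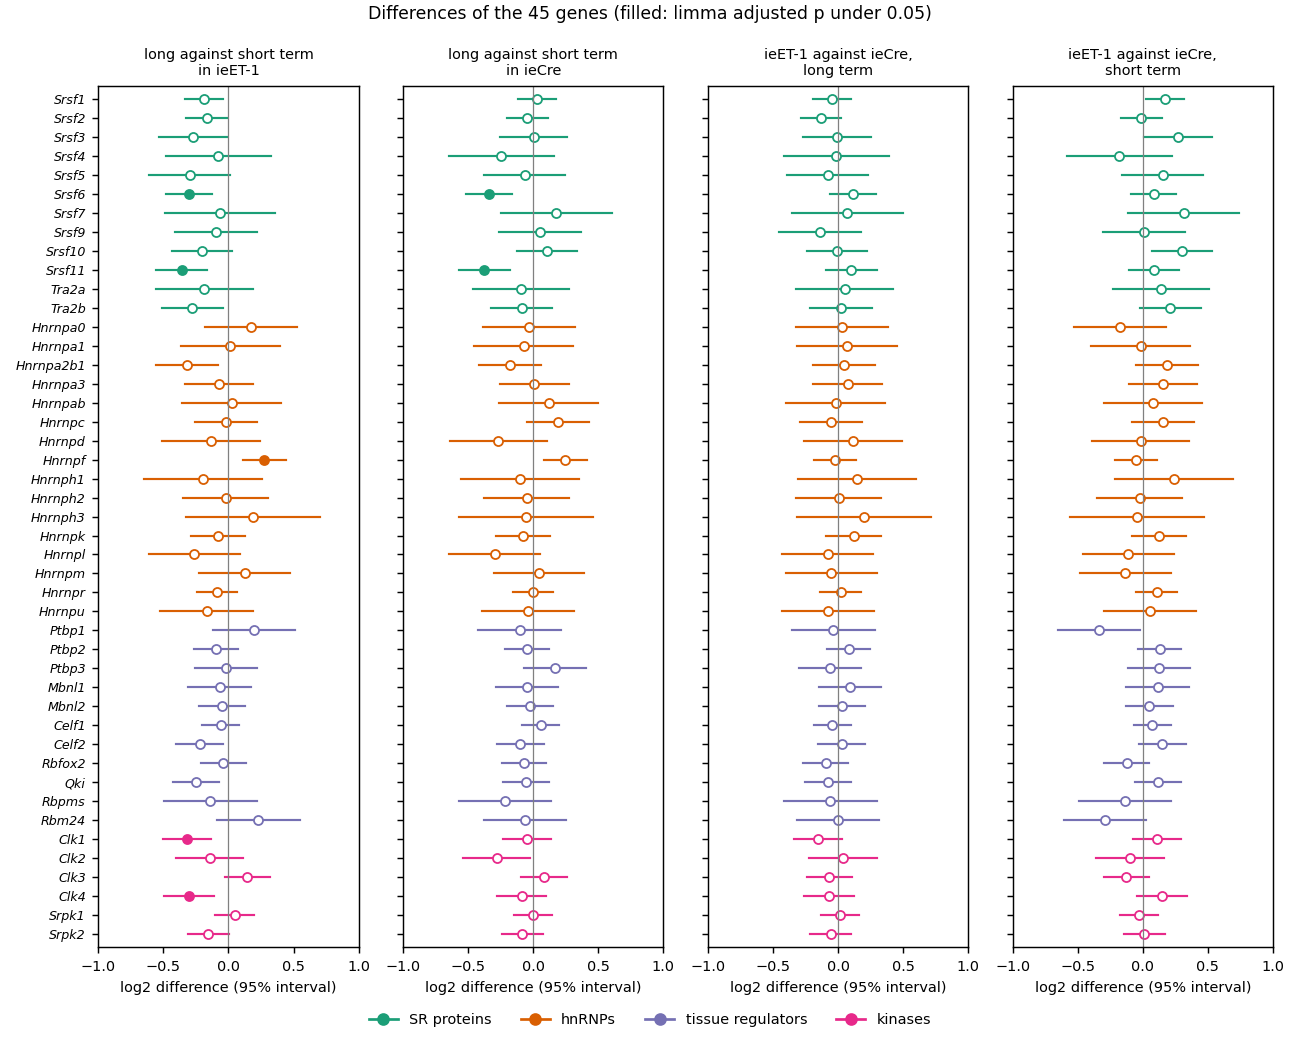
Log2 difference with its 95% interval for each of the 45 genes, coloured by class, in 4 comparisons: long against short term in ieET-1, the same in ieCre, ieET-1 against ieCre at the long term, and the same at the short term. Filled circles passed limma at an adjusted p under 0.05, and they occur in the 2 time panels (5 in ieET-1 and 2 in ieCre).

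The direction of the short-term genotype differences followed the GC content of the genes. Across the 45 genes the Pearson correlation between GC content and the log2 difference was -0.80 (Spearman -0.75), and across 14410 genes tested with a known GC content it was -0.54 (Spearman -0.65); both are across genes, which are not independent replicates. Srsf7, Srsf10 and Srsf3, with 42.1%, 42.5% and 42.6% GC, had the highest differences, and Ptbp1, with 55.3%, the lowest. A contrast of each library, the mean log2 deviation of the genes with at least 54.6% GC minus that of the genes with at most 45.5%, was 0.0943 ± 0.298 in long-term ieET-1, 0.095 ± 0.192 in long-term ieCre, -0.254 ± 0.132 in short-term ieET-1 and 0.0644 ± 0.218 in short-term ieCre libraries (SD, n = 6 each). The short-term ieET-1 libraries were lowest on average and also the closest together. Mice 9955 and 8135, both high in Gm42418, had the highest contrast of their groups, at 0.349 and 0.474, whereas mice 8136 and 9491 did not. With this contrast as a term in the fit, added after the data had been seen, the short-term log2 difference of Ptbp1 was 0.04 (limma, adjusted p = 0.857), that is, of the other sign, and the median of the SR proteins was 0.14 with 12 of 12 positive. None of the 45 passed in a genotype comparison with the term. Between the times, Clk1 and Clk4 lost their limma calls with the term, in ieET-1 (adjusted p = 0.0807 for Clk1 and 0.101 for Clk4) and averaged over genotypes (0.0899 for Clk1 and 0.0699 for Clk4). The same correlation across the 45 genes was 0.47 for the time difference in ieET-1 and -0.20 for that in ieCre.

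**Figure D4:**
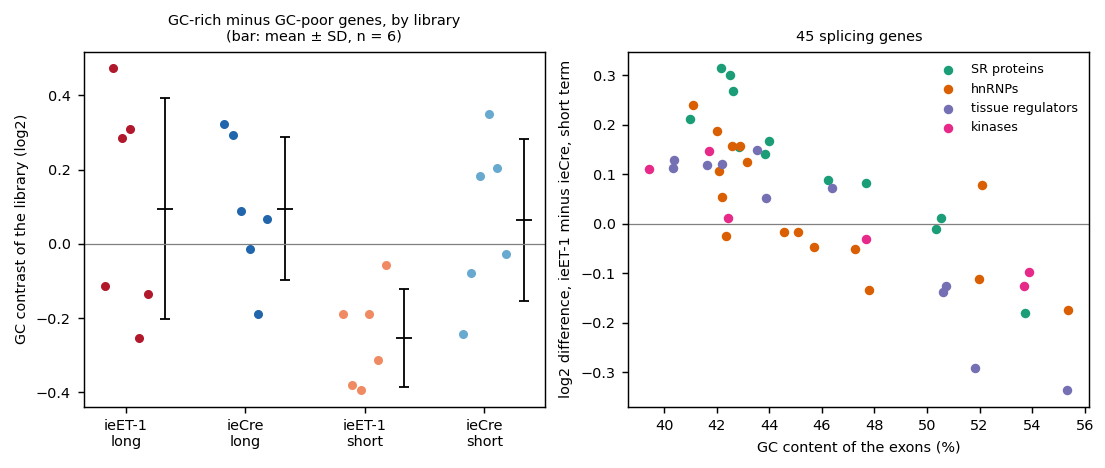
Left, GC contrast of each library (log2) by group, in the order ieET-1 long term, ieCre long term, ieET-1 short term, ieCre short term, with the mean ± SD of 6. Right, GC content of the 45 genes (%) against the log2 difference of ieET-1 minus ieCre at the short term, coloured by class. The points on the right slope downwards (Pearson r = -0.80), and the short-term ieET-1 libraries on the left all lie below 0.

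Among mice of the same group, some of the genes deviated together. Deviations of log2(value + 1) from the group mean were correlated over the 24 libraries for all 990 pairs. Of these, 148 pairs had a two-sided permutation p under 0.05 after Benjamini-Hochberg adjustment, 115 of them positive. The permutation test was not run over all pairs of genes tested, so whether 148 is more than other genes would give is not known. Correlations of at least 0.8 occurred in 1.41% of these pairs and in 0.917% of all pairs of genes tested, and those of -0.8 or below in 0.202%, against 0.608%. The smallest p that 100000 permutations can give is 1e-05.

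The paralogues Clk1 and Clk4 had r = 0.82 (permutation p = 1e-05, adjusted p = 0.0011) and Spearman rho = 0.78 (permutation p = 9e-05), with r = 0.75 without the 2 libraries farthest from the median and 0.81 on deviations from the means of the ID ranges. Srsf3 and Srsf7, a pair of closely related short SR proteins, had r = 0.84 (permutation p = 3e-05, adjusted p = 0.00198) and rho = 0.90 (permutation p = 1e-05), with 0.87 without the 2 farthest libraries and 0.69 within ID ranges. Srsf4 and Ptbp1 had r = 0.91 (permutation p = 1e-05, adjusted p = 0.0011) and rho = 0.89 (permutation p = 1e-05), with 0.89 and 0.87 in the same 2 settings. Hnrnpc and Ptbp1 went in opposite directions, with r = -0.88 (permutation p = 1e-05, adjusted p = 0.0011) and rho = -0.81 (permutation p = 9e-05), and with -0.86 in both settings.

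Both genes of a pair were read from the same libraries, which differ in depth and GC contrast, and the pairs differ in how far they follow that contrast. Within groups, the correlation of a gene with the GC contrast over 24 libraries was 0.92 for Ptbp1, 0.88 for Srsf4 and -0.75 for Hnrnpc, as a description. It was -0.36 for Clk1, -0.29 for Clk4, -0.45 for Srsf3 and -0.31 for Srsf7.

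**Figure D5:**
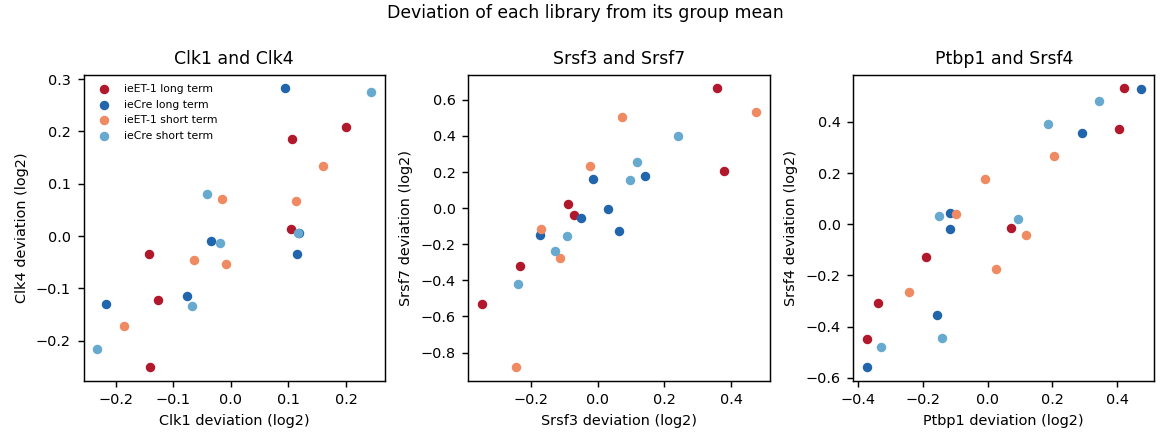
Deviation of each library from its group mean (log2) for Clk1 and Clk4, Srsf3 and Srsf7, and Ptbp1 and Srsf4, with 1 point per library coloured by group. All 3 panels slope upwards (r = 0.82, 0.84 and 0.91), and points of the 4 groups mix along each line.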

How the data were processed

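Total RNA libraries of 24 mice were analysed, 6 per group, with groups and animal IDs taken from the labels. The authors deposited 1 normalized signal per gene and library, with no unit stated. By the values themselves, 100% of the 482060 positive entries are whole reads (tolerance 0.001) times a constant of the library, so the deposited signal is reads over an effective library size. It had been planned for as CPM, and the log-scale test was kept. STAR 2.3.1 and edgeR 3.6.8 are among the tools named, without roles, per the submitters' processing notes, beside R 3.2.3, FastQC and bcl2fastq 1.8.4. The sources used here do not name the build, annotation or counter, nor how multi-mapping reads were treated, which bears on hnRNP pseudogenes. A row naming no gene (at most 0.0993% of reads) was left out. Symbols, locations, transcript types and GC content came from GENCODE mouse release 21 (GRCm38), and 97.9% of genes received a symbol; Qki is listed there as Qk.

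limma 3.58.1 (R 4.3.3) with a variance trend was fitted to log2(value + 1), which understates changes of low genes, for the 14544 genes that reached a value of 1 in 6 libraries or more, as a means model of the 4 groups over all 24 libraries without covariates. Tests were two-sided and Benjamini-Hochberg adjusted over all genes tested, at 0.05. Each library is 1 mouse. The code was tested on simulated data. On the recovered reads, a count test with edgeR, run as an alternative, called 7 genes between genotypes at the short term, 1 at the long term, 4 averaged and 0 in the interaction, and 480 between times in ieCre, 1315 in ieET-1 and 2565 averaged. At these depths 3 reads are worth a value of 0.177 to 0.461, far below any of the 45 genes. Alternatives were other pseudocounts and filters, quantile normalization, edgeR 4.0.16 and DESeq2 1.42.0 on recovered reads, the compared groups alone, ID range, adrenal score, library weights, leaving out libraries and, added after seeing the data, the GC contrast and the nuclear RNA score as terms. Genes with full statistics are those past the threshold, up to 10, or else the smallest p up to 6, and up to 4 of each related list; other genes were named after their values were seen. The genes and lists were chosen with earlier results of these data known.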

Additional observations from a re-analysis of the deposited data

Results flagged for a closer look

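Of 180 sets of 6 libraries examined (45 genes in 4 groups), 11 held a library far from the other 5, with a gap above 0.625 of the whole range; chance alone flags about 1 in 20 such sets. Mouse 9955 (ieCre short term), the library with the most reads on Gm42418, accounts for 6 of them. It was highest for Tra2a at 23.9 (next 17.2), Hnrnpa0 at 47.3 (next 34.5), Hnrnpa1 at 44.7 (next 26.0), Hnrnpd at 37.7 (next 23.4) and Hnrnph3 at 23.2 (next 11.6), and lowest for Mbnl1 at 623 (next 839.6). Without the 4 libraries high in Gm42418, including mouse 9955, none of the 45 genes passed limma in a genotype comparison.

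The other 5 fell on different mice. Ptbp3 was highest at 274 in mouse 9487 of the ieCre long-term group (next 204), and Clk4 at 93.8 in mouse 9491 of that group (next 77.2). Qki was highest at 367 in mouse 8987 of the ieET-1 short-term group (next 299). In the ieET-1 long-term group, Rbm24 was highest at 23.8 in mouse 8135 (next 17.9), and Srpk1 was lowest at 48.3 in mouse 8152 (next 54.4).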

How the results depend on the processing

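The count of splicing genes called between the times depended on the model, and that between genotypes was 0 under all alternatives run. Averaged over genotypes, Srsf11, Srsf6 and Hnrnpf were called in all 37 alternative fits; the count of 6 (16.7% of all genes) became 3 without a filter (6.93% of all genes) and 3 with quantile normalization (15.8%), both without Clk1, Clk4 and Hnrnpa2b1, 10 with library weights (23.4%) and 13 with the GC contrast as a term (36.8%). Within ieET-1 the count of 5 (8.66%) became 9 with DESeq2 (13.1%), 1, Srsf11, with the compared groups alone (4.52%), 3 with library weights (7.93%), 0 in the fit that holds the adrenal score (3.46%), 9 with the GC contrast (22.4%) and 7 with the nuclear RNA score (20.7%), of which 3 were among the 5. Within ieCre the count of 2 (3.30%) became 1, Srsf6, with the compared groups alone (2.68%), 4 with library weights (15.3%), 1, Srsf6, without the 4 libraries high in Gm42418 (1.83%), 0 with the adrenal score (1.57%), 5 with the GC contrast (15.3%) and 0 with the nuclear RNA score (2.51%). The larger counts of splicing genes came with larger shares of all genes called. Clk1 and Clk4 in ieET-1 lost their calls without the libraries high in Gm42418 (limma, adjusted p = 0.174 and 0.154). With 1 library left out, counts ran from 3 to 7 averaged over genotypes, from 2 to 5 in ieET-1 and from 0 to 2 in ieCre. edgeR on recovered reads called 6, 5 and 2 for the same comparisons. Of the values of named genes under alternatives, 1454 kept direction and side of the threshold, 114 lost the call, 8 gained one and 2 reversed: Ptbp1 with the GC contrast as a term, at 0.040 at the short term and 0.0023 averaged over times. Only a gene called in the main fit could lose a call, and many of the 1454 belong to genes not called there. Averaged over genotypes, Clk1 lost its call in 21 of 37 alternative fits, Clk4 in 18 and Hnrnpa2b1 in 14. Within ieET-1, Clk4 lost it in 15 of 38 and Clk1 in 10. The cause of these shifts was not tested. No paired analysis was possible because no number pairs mice between groups. Each value rests on at least 66 reads, and the part of depth in the spread was not tested. Hnrnph3, with the fewest reads, also varied most between mice of a group (35.2%).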
